A study of Mus musculus with 9 samples.

Results

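The 8 potassium channel genes expressed in neurons, Kcnd2, Kcnd3, Kcnq3, Kcnq5, Kcnma1, Kcnh7, Kcnk2 and Kcnj3, were followed across 3 Sfpq genotypes in the embryonic mouse cerebral cortex. They form a list of names drawn up with earlier results of these data known, and they are 8 of the 23201 genes named in the deposited tables. Each gene was represented by the RefSeq transcript with its highest mean level over the 9 libraries. The study had 9 libraries of total RNA without ribosomal RNA from E13.5 embryos, 3 control, 3 Sfpq+/- and 3 Sfpq-/-, each labelled as a separate embryo of a mixed C57BL/6, C57BL/6J and CBA background. Sfpq is an RNA-binding protein of the nucleus, and the study's question was its role in the transcription of long neuronal genes. Nothing in the sources used here gives the exact genotype of the control embryos, the Sfpq allele, or whether a Cre driver restricts its loss to some cells.

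Potassium channels let potassium ions leave a cell and so set its resting potential, shape each action potential and limit how often it fires. Kv4 channels carry the fast A-type current of dendrites, Kv7 channels the slow M-current, ERG channels a current that outlasts a spike, and BK channels a calcium-activated current. Two-pore channels give a steady leak, and GIRK channels open on signals from G protein-coupled receptors. In the cortex at this stage newborn neurons lie above dividing radial glia, and many channel genes are switched on as neurons mature. All values are RPKM (reads scaled to the length of the transcript in kilobases and to the depth of the library), in which levels of genes of different length can be compared.

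Promoter sequence was found in the RefSeq table (build GRCm38.p6) for 7 of the 8 genes. The 250 bases before the listed start site are given for 4 of the 5 genes that passed the test below, to show what lies upstream of genes that moved together. In GENCODE the transcript measured starts 440 bases downstream of the listed start for Kcnd3, 157 bases downstream for Kcnd2, 9 bases for Kcnh7 and 0 for Kcnj3, so the Kcnd3 and Kcnd2 windows do not directly adjoin that start. The windows lie at chr6:21215096-21215345 (plus strand) for Kcnd2, chr3:105451640-105451889 (plus) for Kcnd3, chr2:63184288-63184537 (minus) for Kcnh7 and chr2:55435720-55435969 (plus) for Kcnj3. Capitals mark a CCAAT box (CCAAT), a GC box (GGGCGG) or a TATA box (TATAAA), searched on both strands, so a capital run is one of these motifs or its reverse complement.
Kcnd2 promoter: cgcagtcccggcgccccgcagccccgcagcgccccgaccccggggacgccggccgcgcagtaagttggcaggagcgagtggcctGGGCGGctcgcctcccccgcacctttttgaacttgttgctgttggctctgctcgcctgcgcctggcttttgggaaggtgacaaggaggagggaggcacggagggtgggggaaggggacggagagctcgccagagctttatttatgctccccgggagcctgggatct
Kcnd3 promoter: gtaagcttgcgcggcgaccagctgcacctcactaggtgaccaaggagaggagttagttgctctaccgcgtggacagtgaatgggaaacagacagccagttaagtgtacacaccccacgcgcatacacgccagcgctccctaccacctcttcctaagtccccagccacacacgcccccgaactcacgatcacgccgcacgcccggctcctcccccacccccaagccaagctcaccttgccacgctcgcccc
Kcnh7 promoter: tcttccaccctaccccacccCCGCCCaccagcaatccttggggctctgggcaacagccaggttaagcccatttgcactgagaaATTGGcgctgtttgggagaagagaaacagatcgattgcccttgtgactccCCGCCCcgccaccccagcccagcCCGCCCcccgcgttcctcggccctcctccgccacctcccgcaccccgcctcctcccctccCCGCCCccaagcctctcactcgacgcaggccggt
Kcnj3 promoter: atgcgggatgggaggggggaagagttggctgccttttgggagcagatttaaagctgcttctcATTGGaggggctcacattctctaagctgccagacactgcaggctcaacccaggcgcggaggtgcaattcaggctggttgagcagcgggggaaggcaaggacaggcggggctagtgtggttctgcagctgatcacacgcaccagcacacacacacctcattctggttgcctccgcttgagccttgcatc
The Kcnd2, Kcnd3 and Kcnh7 promoters were rich in CG dinucleotides, with 22, 18 and 16 of them. The Kcnj3 promoter held 7, near the median of 6 over 32851 promoter windows of the same length. GC content was 68.8%, 62.8%, 67.6% and 58.4% in that order, against a median of 52.4%. Kcnh7 had 4 GC boxes and 1 CCAAT box, Kcnd2 had 1 GC box, Kcnj3 had 1 CCAAT box, and Kcnd3 had none of these motifs. A GC box was found in 32.7% of all windows, a CCAAT box in 33.8% and a TATA box in 12.4%. No TATAAA was in any of the 4 windows, so the 4 genes shared no single motif of the set searched.

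Kcnd3, Kcnq3 and Kcnd2 stood far lower in Sfpq-/- than in control cortex, at 18.7%, 17.8% and 25.7% of the control mean. Kcnh7 and Kcnj3 kept more, at 58.7% and 64.9%. Kcnk2 was at 89.5% of control with overlapping groups. Kcnq5 and Kcnma1 were too low to judge, with Sfpq-/- means at 25.4% and 64.5% of control. Genes were tested with limma where their mean over the 9 libraries was at least 0.5 RPKM, on log2(RPKM + 0.5), and called at a Benjamini-Hochberg adjusted p below 0.05 over all 12159 genes tested. Kcnq5 (mean of 0.149 RPKM) and Kcnma1 (0.129 RPKM) did not reach that level, and the lowest gene above it was Kcnj3 (1.02 RPKM). Of the 6 genes tested 5 were lower and 0 higher in Sfpq-/- than in control cortex. Over all genes tested, 19.9% were called lower and 14.4% higher. All 8 genes span at least 186 kb of the genome, and among all tested genes spanning at least 100 kb 41.8% were called lower. That set also holds genes shorter than any of the 8, so it is not matched to them in span. The median log2 change was -0.96 over the 6 genes, -0.14 over the 1768 tested genes of at least 100 kb and -0.01 over all genes tested. In 5 of the 6 genes all Sfpq-/- libraries lay below all control libraries, which held for 25.6% of all genes tested.

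**Figure D1:**
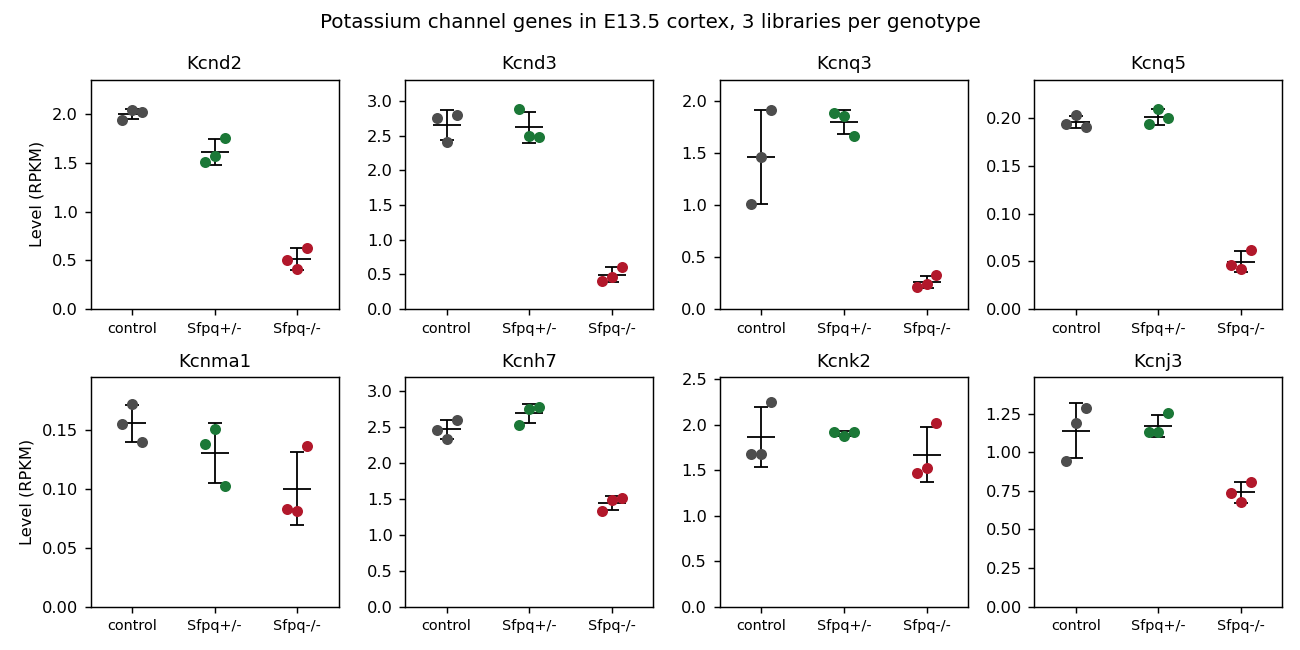
Level of each of the 8 genes (RPKM, linear axis from 0) in the 3 libraries of each genotype. Points are libraries, in the order of their replicate numbers, and horizontal lines with bars are the mean and SD. The Sfpq-/- points of Kcnd2, Kcnd3, Kcnq3 and Kcnq5 lie far below those of the other genotypes, and the Kcnk2 points overlap. Kcnq5 and Kcnma1 were too low to judge.

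Sfpq, as a check of the labels, had a level of 184, 202 and 218 RPKM in control, 185, 163 and 169 RPKM in Sfpq+/- and 26.1, 28.6 and 27.6 RPKM in Sfpq-/- libraries. These values are of its RefSeq transcript with the highest mean, a non-coding one of 925 bases. The Sfpq+/- mean was 85.6% of control with overlap and was not called (limma adjusted p = 0.709), so the check did not separate Sfpq+/- from control. The tissue label was matched by its markers: the radial glia genes Sox2, Pax6 and Nes stood at 97.4, 29.8 and 177 RPKM in control cortex, and the neuronal tubulin Tubb3 at 364 RPKM. The estimated depth was 168 to 204 M reads per library. The 3 Sfpq+/- embryos were male, the control embryos 2 female and 1 male, and the Sfpq-/- embryos 1 female and 2 male, as read from their RNA. Beside the lower channel genes in Sfpq-/- cortex, the summed levels of several marker lists of cell types also lay outside the control range. Over all genes tested, 19.9% were called lower and 14.4% higher. The 10 radial glia markers summed to 1939 to 2121 RPKM in control and 1819.5 to 1913 RPKM in Sfpq-/- libraries, which did not overlap. Of the 10, 3 were called lower and 1 higher. Sox2, Pax6 and Nes were at 102.4%, 101.8% and 99.7% of control in Sfpq-/- cortex, with overlapping groups, and were not called. The summed level of 6 intermediate progenitor markers lay outside the control range of 132 to 167 RPKM, at 85.4 to 89.6 RPKM, with 3 of 6 called lower. The 7 markers of Cajal-Retzius cells summed to 38.3 to 43.6 RPKM in control and 55.9 to 67.6 RPKM in Sfpq-/- libraries, with 5 of 7 called higher. The 8 microglial markers summed to 13.55 to 15.3 and 17.9 to 24.8 RPKM, with 3 of 7 tested called higher. The 12 markers of neurons, chosen among genes of short span, summed to 775 to 887 RPKM in control and 688 to 853 RPKM in Sfpq-/- libraries, ranges that overlap, with 3 called higher and 1 lower. Among these Neurod6, a transcription factor of cortical excitatory neurons, fell from 100.2 to 65.0 RPKM, and Dcx, a microtubule protein of young neurons, rose from 18.8 to 22.2 RPKM. Summed levels of markers of GABAergic, endothelial and mural, and red blood cells overlapped between the groups. No marker of any of these lists was at 0 in all libraries. The part of cell composition in the changes of the channel genes was not tested, and in whole tissue fewer cells of a type and less RNA per cell cannot be told apart.

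Kcnd2 and Kcnd3 encode Kv4 pore subunits of the A-type current. Kcnd2, which spans 514 kb of chromosome 6 (RefSeq, GRCm38.p6), was at 1.94, 2.04 and 2.03 RPKM in control, 1.51, 1.57 and 1.76 RPKM in Sfpq+/- and 0.507, 0.412 and 0.630 RPKM in Sfpq-/- libraries. The 3 genotypes were fully separated, with Sfpq+/- between the other two. The Sfpq-/- mean of 0.516 ± 0.109 RPKM (SD, n = 3) compared with 2.00 ± 0.0558 RPKM (SD, n = 3) in control, a log2 change of -1.31 ± 0.09 (SE; limma adjusted p = 1.41e-06). Kcnd3, which spans 222 kb of chromosome 3, was at 2.76, 2.41 and 2.80 RPKM in control, 2.88, 2.50 and 2.48 RPKM in Sfpq+/- and 0.407, 0.470 and 0.612 RPKM in Sfpq-/- libraries. Here the Sfpq+/- libraries overlapped the controls, the highest of them lying above all controls, and all 3 Sfpq-/- libraries were far below both. Its log2 change of -1.67 ± 0.10 (SE; limma adjusted p = 3.66e-07) was the furthest from 0 among the 6 genes tested. In control cortex Kcnd3 had the highest mean of the 8 genes, 2.66 ± 0.217 RPKM (SD, n = 3), and in Sfpq-/- cortex it was the fifth at 0.496 ± 0.105 RPKM (SD, n = 3), within the spread of Kcnd2. An antisense gene, Kcnd3os, overlaps exons of Kcnd3, and no other gene overlaps exons of Kcnd2.

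The tables hold 2 RefSeq transcripts of Kcnd3. The longer one, used above, has 7169 bases. The shorter one has 2102 bases, of which 97.3% (2045 bases) are also in the longer one, and holds a 57-base coding exon that the longer one skips. That exon, number 5 of its 7, is at chr3:105666962-105667018 on the plus strand of GRCm38. It is shown in capitals between 20 bases of the neighbouring exons on each side, as joined in the spliced transcript, because it is the only sequence of the shorter transcript that the longer one lacks.
Kcnd3 exon 5 of the shorter transcript: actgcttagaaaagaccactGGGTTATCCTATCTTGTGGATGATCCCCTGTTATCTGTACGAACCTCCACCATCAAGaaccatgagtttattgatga
The shorter transcript was at 2.35, 2.16 and 2.48 RPKM in control, 2.47, 2.07 and 2.14 RPKM in Sfpq+/- and 0.536, 0.676 and 1.05 RPKM in Sfpq-/- libraries. Both transcripts were thus low in each Sfpq-/- library, but their order differed between the genotypes. On the log2(RPKM + 0.5) scale the longer minus the shorter transcript was 0.20, 0.13 and 0.15 in control, 0.19, 0.23 and 0.18 in Sfpq+/-, and -0.19, -0.28 and -0.48 in Sfpq-/- libraries. The longer transcript was the higher one in the 6 control and Sfpq+/- libraries and the lower one in the 3 Sfpq-/- libraries. The difference between Sfpq-/- and control was -0.47, with p = 0.1 in a two-sided exact permutation test, the smallest p that 3 against 3 libraries allow, so the test could not pass 0.05. It was -0.67 with a pseudocount of 0.1. The rule by which the authors' program shared reads between transcripts with common bases is unknown here. Of the bases not in common, 57 are in the exon shown and 5124 are in the longer transcript only. The value of the shorter transcript thus rests mostly on common bases, and that of the longer one mostly on its own.

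**Figure D2:**
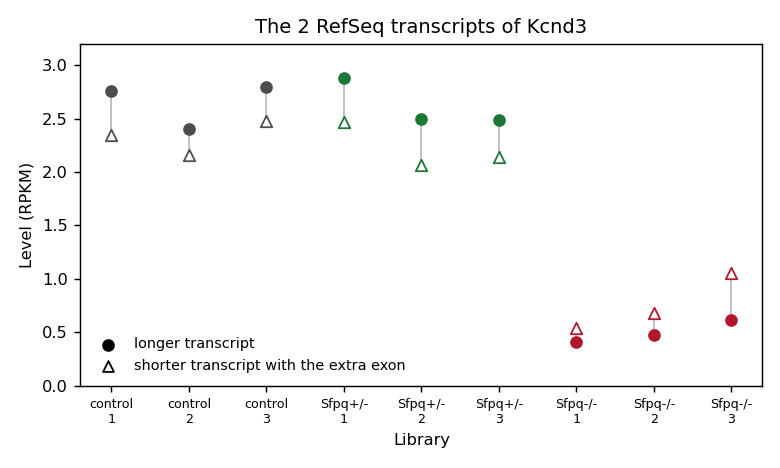
Levels of the 2 RefSeq transcripts of Kcnd3 (RPKM, linear axis from 0) in each of the 9 libraries. Filled circles are the longer transcript and open triangles the shorter one with the extra exon, joined by a line within a library. The circle lies above the triangle in the 6 control and Sfpq+/- libraries and below it in the 3 Sfpq-/- libraries.

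Kv4 channels work in a complex with KChIP proteins, which bind calcium and help the channel reach the surface, and with the DPP proteins Dpp6 and Dpp10, which speed its gating. Of these 6 partner genes 4 were tested, and all 4 were called lower in Sfpq-/- cortex. Over all genes tested 19.9% were called lower, and 41.8% of those spanning at least 100 kb. Kcnip1, Dpp6 and Dpp10 span 364, 910 and 1514 kb, and Kcnip3 spans 65.6 kb. Kcnip1, which encodes KChIP1, was at 3.70, 4.43 and 4.85 RPKM in control, 2.46, 2.63 and 2.49 RPKM in Sfpq+/- and 0.523, 0.320 and 0.612 RPKM in Sfpq-/- libraries. As for Kcnd2, the 3 genotypes did not overlap and Sfpq+/- lay between. The same order without overlap was also seen outside the Kv4 genes, for the BK subunit gene Kcnmb4 and the beta subunit gene Kcnab2. The share of all genes with this order was not counted. Its Sfpq-/- mean was 11.2% of control (log2 change -2.30 ± 0.12, SE; limma adjusted p = 1.60e-07), and its Sfpq+/- mean was 58.4% of control, which was not called (log2 change -0.67, limma adjusted p = 0.428). Kcnip3, which encodes KChIP3, a protein also known as the calcium-dependent repressor DREAM, was at 1.25, 1.46 and 1.90 RPKM in control and 0.347, 0.285 and 0.408 RPKM in Sfpq-/- libraries (log2 change -1.25, limma adjusted p = 1.27e-05). Dpp10 was at 1.36, 1.08 and 1.51 RPKM in control and 0.315, 0.173 and 0.428 RPKM in Sfpq-/- libraries (log2 change -1.18, limma adjusted p = 4.11e-05). Dpp6 was at 1.53, 1.49 and 1.43 RPKM in control and 0.569, 0.498 and 0.975 RPKM in Sfpq-/- libraries (log2 change -0.77, limma adjusted p = 7.26e-04). For Kcnip3, Dpp10 and Dpp6 the Sfpq-/- libraries lay below all others, and the Sfpq+/- libraries overlapped the controls. Kcnip2 and Kcnip4 were under the 0.5 RPKM limit, at 0.343 and 0.321 RPKM in control and 0.461 and 0.388 RPKM in Sfpq-/- cortex. Both tested pore genes of the A-type channel and the 4 tested partners were therefore lower in the same libraries, by different amounts.

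**Figure D3:**
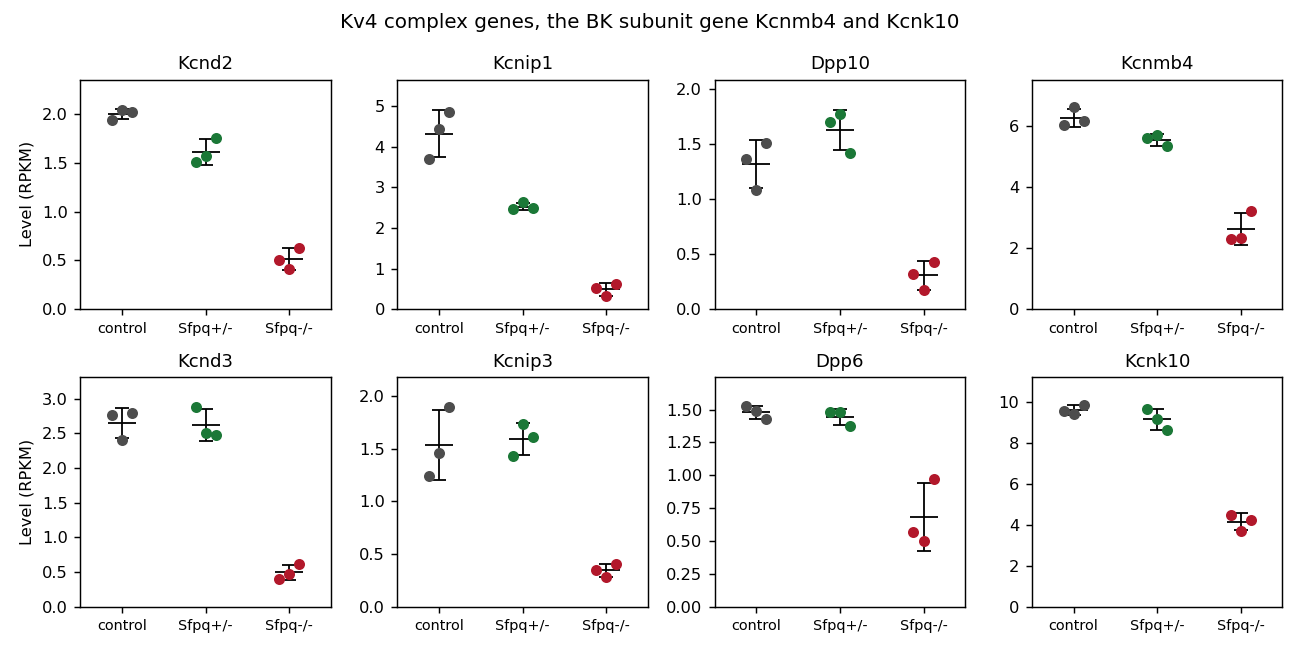
Levels (RPKM, linear axis from 0) of the Kv4 pore genes Kcnd2 and Kcnd3, their partners Kcnip1, Kcnip3, Dpp6 and Dpp10, the BK subunit gene Kcnmb4 and the leak channel gene Kcnk10. Points are libraries and lines with bars the mean and SD of 3. Sfpq-/- points lie below all others for each of the 8 genes shown.

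Kcnq3 and Kcnq5 encode Kv7 subunits of the M-current. Kcnq3, which spans 300 kb of chromosome 15, was at 1.01, 1.46 and 1.91 RPKM in control, 1.88, 1.85 and 1.66 RPKM in Sfpq+/- and 0.215, 0.237 and 0.326 RPKM in Sfpq-/- libraries. The control libraries were widely spread and held the Sfpq+/- values within their range, while the highest Sfpq-/- value was well under the lowest control. The log2 change was -1.34 ± 0.14 (SE; limma adjusted p = 3.28e-05). The 2 female control embryos had the lower Kcnq3 values, and with sex as a term in the model the log2 change was -1.45. Kcnq5, which spans 564 kb of chromosome 1, was low throughout, at 0.194, 0.203 and 0.190 RPKM in control, 0.194, 0.210 and 0.200 RPKM in Sfpq+/- and 0.0459, 0.0415 and 0.0618 RPKM in Sfpq-/- libraries. Its values were nonetheless tight, and no Sfpq-/- value came near the others. They correspond to about 236 reads in control and 59.2 reads in Sfpq-/- libraries on average, by the estimated depth. Because it lay under the limit it was too low to judge and was not tested. In a fit without the limit its log2 change was -0.34 (limma adjusted p = 2.20e-05), and with a pseudocount of 0.1 as well it was -0.98 (limma adjusted p = 4.45e-05). The second of these settings was chosen after seeing the data. A gene on the opposite strand, Gm26580, overlaps exons of Kcnq5, and no other gene overlaps those of Kcnq3.

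Kcnh7 encodes an ERG-type channel of neurons and spans 491 kb of chromosome 2. It was at 2.46, 2.33 and 2.60 RPKM in control, 2.53, 2.75 and 2.78 RPKM in Sfpq+/- and 1.34, 1.49 and 1.52 RPKM in Sfpq-/- libraries. Sfpq-/- libraries were the low ones with no overlap, and their mean was 58.7% of the control mean. The log2 change was -0.61 ± 0.08 (SE; limma adjusted p = 1.14e-04). Its exons overlap those of Gca on the opposite strand.

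Kcnma1 encodes the pore of the BK channel and, at 713 kb on chromosome 14, has the largest span of the 8 genes. It was the lowest in control cortex, at 0.155, 0.172 and 0.140 RPKM, with 0.138, 0.151 and 0.102 RPKM in Sfpq+/- and 0.0832, 0.0815 and 0.137 RPKM in Sfpq-/- libraries. Sfpq-/- replicate 3 came within a few thousandths of the lowest control, and the Sfpq+/- libraries overlapped both groups. The levels correspond to about 96.1 reads in control and 61.1 reads in Sfpq-/- libraries, and its 22 RefSeq transcripts have near-equal values, since they share most of their exons. A fit without the limit gave a log2 change of -0.13 (limma adjusted p = 0.0674), so no direction was called. The BK accessory subunit of neurons, Kcnmb4, was far more abundant per length. Kcnmb4 was at 6.03, 6.61 and 6.17 RPKM in control, 5.62, 5.71 and 5.33 RPKM in Sfpq+/- and 2.31, 2.34 and 3.21 RPKM in Sfpq-/- libraries. It was called lower without overlap (log2 change -1.13, limma adjusted p = 1.04e-05).

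Kcnk2 encodes TREK-1, a leak channel that responds to stretch, temperature and lipids, and spans 195 kb of chromosome 1. It was at 1.68, 1.68 and 2.25 RPKM in control, 1.92, 1.87 and 1.92 RPKM in Sfpq+/- and 1.47, 1.52 and 2.02 RPKM in Sfpq-/- libraries. Replicate 3 was the high library in both control and Sfpq-/- cortex, and the 3 genotypes overlapped. The log2 change between Sfpq-/- and control was -0.13, with a 95% interval of -0.38 to 0.13 (limma adjusted p = 0.446). A fall as large as that of Kcnh7 lay outside the interval. Falls down to -0.38 and rises up to 0.13 lay inside it. The value moved with single libraries, from -0.013 without control replicate 3 to -0.24 without Sfpq-/- replicate 3, and was -0.21 with sex as a term, none of them called. In Sfpq-/- cortex Kcnk2 had the highest mean of the 8 genes, 1.67 ± 0.304 RPKM (SD, n = 3), where it was the fourth in control, and Kcnh7 at 1.45 ± 0.0951 RPKM (SD, n = 3) was next, within that spread. Its relative Kcnk10, which encodes TREK-2, was at 9.60, 9.42 and 9.89 RPKM in control and 4.51, 3.73 and 4.26 RPKM in Sfpq-/- libraries (log2 change -1.12, limma adjusted p = 9.65e-07). The difference between the 2 genes' changes was not tested. The log2 difference between the largest-span and smallest-span of the 4 Kcnk2 transcripts was shifted by -0.01 between control and Sfpq-/- cortex (two-sided exact permutation p = 0.9).

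Kcnj3 encodes the GIRK1 subunit, which needs another GIRK subunit to reach the cell surface, and spans 186 kb of chromosome 2. It was at 0.944, 1.19 and 1.29 RPKM in control, 1.13, 1.13 and 1.25 RPKM in Sfpq+/- and 0.733, 0.678 and 0.809 RPKM in Sfpq-/- libraries. The Sfpq-/- libraries were below all others by a margin smaller than the spread of the controls. The log2 change was -0.40 ± 0.09 (SE; limma adjusted p = 0.00659). Of the other GIRK genes, Kcnj5 went the other way, from 0.735 RPKM in control to 1.01 RPKM in Sfpq-/- cortex (log2 change 0.29, limma adjusted p = 0.0143), a call that was lost without Sfpq-/- replicate 3 (adjusted p = 0.0544). Kcnj6, the main neuronal partner, and Kcnj9 were too low, at 0.0825 and 0.0977 RPKM in control. Kcnk2 and Kcnj3 each share exonic positions with a gene on the opposite strand, A430027H14Rik and Gm26794.

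Loss of 1 Sfpq copy was compared with control in the same libraries of control embryos, so this comparison and the previous one are not independent. None of the 6 genes tested was called, and 1, Kcnd2, had an unadjusted limma p below 0.05. Over all genes limma called 0% (0 of 12159), with 699 at an unadjusted p below 0.05. Kcnd2 was at 1.61 ± 0.132 RPKM (SD, n = 3) in Sfpq+/-, 80.5% of control, a log2 change of -0.25 with a 95% interval of -0.45 to -0.04 (limma adjusted p = 0.765). All 3 Sfpq+/- libraries were below all controls for Kcnd2, which held for 7.54% of all genes tested. For the other 5 genes the groups overlapped. Kcnd3 was at 98.8% of control in Sfpq+/- cortex, with a 95% interval of -0.23 to 0.20 for the log2 change. Kcnq3 was at 123.1% of control, with an interval of -0.06 to 0.57, so that neither a small fall nor a rise of that size lay outside it. It rested on single controls: the log2 change of 0.25 was 0.079 without control replicate 1 and 0.42 without control replicate 3. The log2 change of Kcnh7 was 0.10, of Kcnj3 0.03 and of Kcnk2 0.03. All Sfpq+/- embryos were male, and with sex as a term the log2 changes were -0.26 for Kcnd2, -0.11 for Kcnd3, 0.050 for Kcnq3, 0.031 for Kcnh7, -0.036 for Kcnj3 and -0.15 for Kcnk2. None of them was called.

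The Sfpq-/- libraries were also compared with the Sfpq+/- libraries, a difference of means that leaves out the control values, although the controls enter the standard errors and p-values through the common fit. The same 5 genes, Kcnd2, Kcnd3, Kcnq3, Kcnh7 and Kcnj3, were called lower, and 0 were called higher, where over all genes 18.3% were lower and 14.6% higher. The log2 changes were -1.06 ± 0.09 (SE) for Kcnd2, -1.65 ± 0.10 for Kcnd3, -1.60 ± 0.14 for Kcnq3, -0.71 ± 0.08 for Kcnh7 and -0.43 ± 0.09 for Kcnj3. Their limma adjusted p-values ran from 4.12e-07 for Kcnd3 to 0.00451 for Kcnj3. Kcnk2 again did not pass (log2 change -0.16, limma adjusted p = 0.343).

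**Figure D4:**
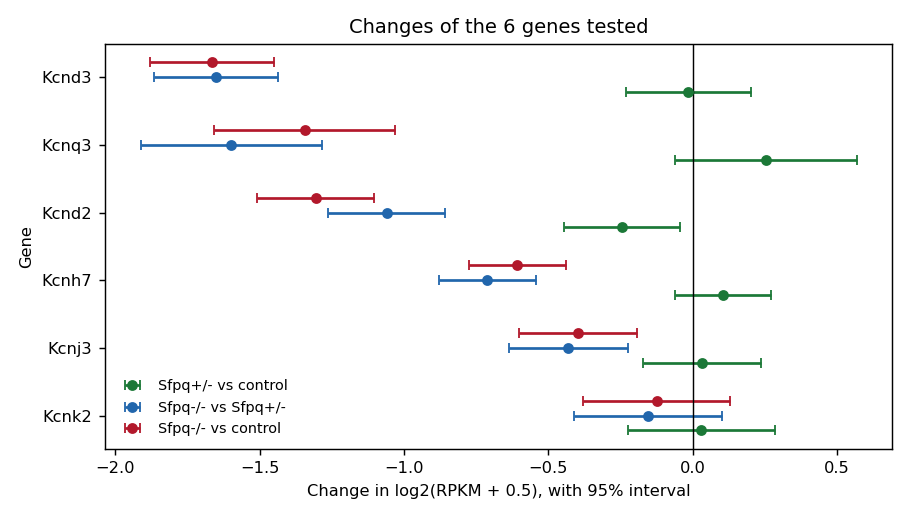
Log2 changes of the 6 genes tested, as differences of log2(RPKM + 0.5), in 3 comparisons. Points are limma estimates and bars their 95% intervals. The intervals of Kcnd3, Kcnq3, Kcnd2, Kcnh7 and Kcnj3 lie below 0 in both comparisons with Sfpq-/-, and that of Kcnd2 also in Sfpq+/- against control, where it did not pass adjustment.

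The highest library of each group was counted over the 8 genes. Sfpq-/- replicate 3 had the highest value of its group for 8 of 8 genes, where 47.7% of all genes tested were highest in that library. Control replicate 3 was highest in its group for 5 of the 8 genes, where 63.1% of all genes were, and control replicate 2 for the other 3. In Sfpq+/- cortex the counts were 2, 2 and 4 for replicates 1, 2 and 3, where 29.0%, 22.7% and 48.3% of all genes were highest. The control and Sfpq+/- counts were thus near those of all genes. The log2 changes of Kcnd2, Kcnd3, Kcnq3, Kcnh7 and Kcnj3 between Sfpq-/- and control kept their direction and their call when replicate 3 of either group was left out.

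The 86 other potassium channel genes examined, partner subunits included, did not move in 1 direction. Of the 28 that could be tested, 12 were lower, 6 higher and 10 not called in Sfpq-/- against control cortex, with a median log2 change of -0.15. The other 58 were too low. Over all genes tested, 19.9% were lower and 14.4% higher. Accessory subunits of voltage-gated channels were lower in 6 of 7 and higher in 0. Besides the Kv4 partners these were Kcnab2, a beta subunit, which went from 1.53 to 0.475 RPKM (log2 change -1.06, limma adjusted p = 5.66e-06), and Kcne3, whose call was lost under 9 of 20 alternatives, among them leaving out control replicate 2 or 3 or Sfpq-/- replicate 1 or 3 (highest adjusted p = 0.1202). Kcne2, which is abundant in choroid plexus, stood at 13.1 RPKM (control) and 9.56 RPKM (Sfpq-/-) and was not called (limma adjusted p = 0.179). Voltage-gated pore genes were split, with 4 of 9 higher and 2 lower. Among these the rise of Kcnv1, another modifier subunit (log2 change 0.33), was not called without control replicate 2 or Sfpq-/- replicate 2 (highest adjusted p = 0.0560). The fall of Kcna3 (log2 change -0.36), named here after its values were seen, was not called without control replicate 1 or 3 or Sfpq-/- replicate 1 or 2 (highest adjusted p = 0.0817). Kcnh8, a channel of the same EAG superfamily as Kcnh7, rose from 0.625 to 2.03 RPKM (log2 change 1.16, limma adjusted p = 2.82e-05). Its relative Kcnh5 rose from 1.25 to 2.06 RPKM (log2 change 0.54, limma adjusted p = 0.00196), and Kcnf1, a silent modifier subunit, from 0.693 to 1.31 RPKM (log2 change 0.59, limma adjusted p = 0.00148). Calcium- and sodium-activated genes were lower in 3 of 4. Inward rectifiers were higher in 1 of 5 and lower in 0, and two-pore genes were higher in 1 of 3, Kcnk1, and lower in 1, Kcnk10.

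Kcnh7 at 491 kb and its relatives Kcnh8 at 376 kb and Kcnh5 at 280 kb are all long genes, and they went in different directions. Of the 9 other potassium channel genes tested that span at least 100 kb, 7 were lower and 2, Kcnh8 and Kcnh5, were higher. Of the 19 shorter ones 5 were lower and 4 higher. Among all 1768 tested genes of at least 100 kb, 739 were lower and 187 higher. Among all 10388 shorter ones, 1683 were lower and 1560 higher. The medians of the longer and shorter channel genes were -0.77 and -0.08 on the log2 scale. Of the shorter channel genes, Kcnip3 at 65.6 kb, Kcnmb4 at 56.0 kb and Kcnab2 at 86.8 kb had log2 changes further from 0 than that of Kcnh7, a difference that was not tested. Among the 6 genes tested the order of the changes was not that of the spans. From the shortest span up, Kcnj3 (186 kb) changed by -0.40, Kcnk2 (195 kb) by -0.13 and Kcnd3 (222 kb) by -1.67. Kcnq3 (300 kb) changed by -1.34, Kcnh7 (491 kb) by -0.61 and Kcnd2 (514 kb) by -1.31. The part of span in these changes was not tested.

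**Figure D5:**
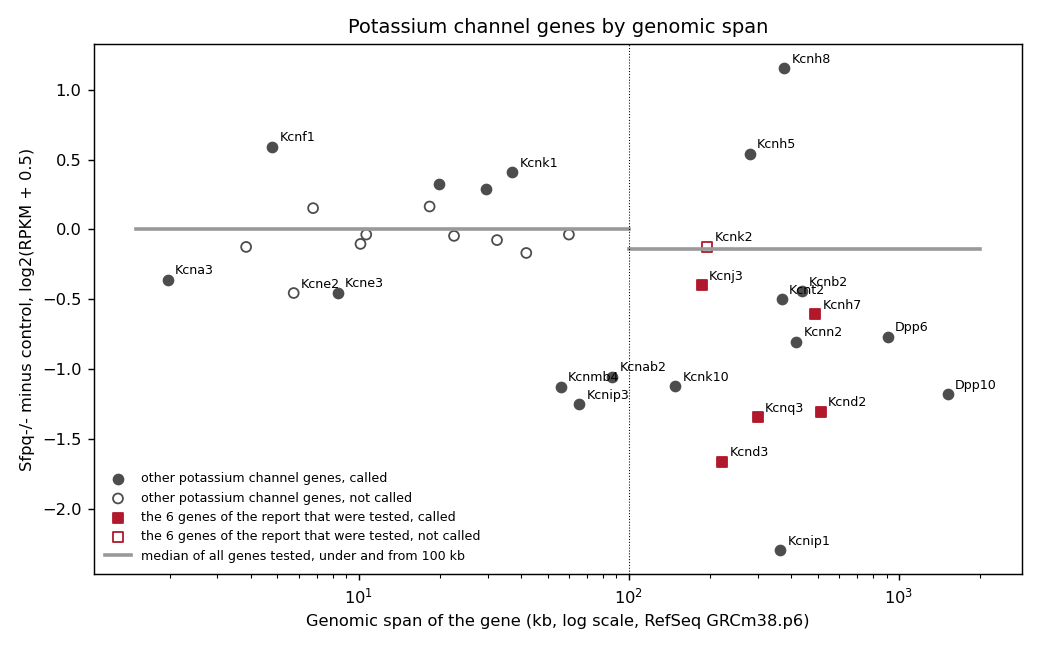
Log2 change between Sfpq-/- and control cortex of 34 potassium channel genes against the genomic span of the gene (log axis, kb). Squares are the 6 tested genes of the 8, circles the 28 others, filled where called, and grey lines are the median of all genes tested under and from 100 kb. Most squares and circles beyond 100 kb lie below the grey line, while Kcnh8 and Kcnh5 lie above 0.

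The genes whose pattern over the 9 libraries was nearest to each channel gene were picked by Pearson's r of log2(RPKM + 0.5), as a description, since all 9 libraries share the difference between genotypes. Nearest to Kcnd3 were Ctnna2 (alpha-N-catenin) and Cpe (carboxypeptidase E), both with r = 0.998. Nearest to Kcnd2 were Sergef (r = 0.996) and the cell adhesion gene Lsamp (r = 0.995), and to Kcnq3 the transcription factor gene Sox5 (r = 0.995) and Adamts18 (r = 0.994). Kcnh7 was nearest to the antiproliferative gene Btg1 (r = 0.997) and the neuronal RNA-binding protein gene Elavl2 (r = 0.995), and Kcnj3 to Clvs1 (r = 0.989) and Gsap (r = 0.988). Kcnk2 had looser neighbours, Kcnn1 (r = 0.970), itself a calcium-activated potassium channel gene, and Leng9 (r = 0.967).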

How the data were processed

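Total RNA of 9 cortices was depleted of ribosomal RNA and sequenced as strand-keeping libraries on a HiSeq2000, per the labels' protocols. CASAVA 1.8.2, TopHat 1.4.1 and the build mm9 are named in the submitters' processing notes. The authors deposited 1 table of RPKM values for 30978 RefSeq transcripts per library, per the file headers. Nothing in the sources used here names the program that made them or how it used strand and shared reads, so genes that overlap another gene are uncertain. No counts are in these tables, and no count test was run. Depth was estimated from the steps between low values with GENCODE M21 lengths: 66.5% to 71.0% of low values lay within 0.1 of a whole read, so it is approximate and read numbers derived from it are rough.

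Transcripts were named with RefSeq and GENCODE tables (293 had no name), and spans come from RefSeq on GRCm38.p6. All 9 libraries were fitted together by genotype with limma 3.58.1 in R 4.3.3, letting the variance depend on the mean; the model took log2(RPKM + 0.5) of the 12159 genes that averaged 0.5 RPKM or more. Fold changes on this scale understate the change of low genes. On simulated data of the Sfpq-/- against control comparison (12159 genes, 200 changed, 10 runs) the test found 75.0% of changes of 0.5 and 97.5% of changes of 1 (log2 units), and 4.64% of its calls were false. The simulated noise was independent between genes, and 200 genes changed where 4170 were called in the data. These rates may therefore not hold for the data. Embryos are the replicates.

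The members and gene lists were chosen with earlier results of these data known. All 8 members are named, as are partner subunits that could be tested or are discussed with a member, up to 6 other potassium channel genes higher and 6 lower with the largest called change, and the 2 genes nearest to each tested member by Pearson's r. Alternatives were the pseudocount, the limit on low values, quantile normalization, the choice of transcript, the replicate number as a block, sex as a term, the groups fitted, the variance trend and leaving out each library. One partner subunit is not reported here.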

Additional observations from a re-analysis of the deposited data

How the results depend on the processing

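Over the 363 alternative fits of the log2 changes of the 6 tested genes in 3 comparisons, no call was gained or lost, and 353 fits kept the direction. The 10 that turned it were changes in Sfpq+/- against control cortex that were not called. Leaving out 1 library each gave ranges of -0.074 to 0.019 for Kcnd3, -0.026 to 0.14 for Kcnk2, -0.057 to 0.096 for Kcnj3 and 0.079 to 0.42 for Kcnq3, which did not turn, and sex as a term gave -0.15 for Kcnk2 and -0.036 for Kcnj3. The difference between the Kcnk2 transcripts ranged from -0.027 to 0.013 on leaving out 1 library, and that between the Kcnd3 transcripts was -0.67 with a pseudocount of 0.1.

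With a limit of 2 RPKM only Kcnh7 of the 8 genes could be tested, so 1 was called in each comparison with Sfpq-/- cortex, and of the other potassium channel genes 3 were called in each. With no limit, more low genes were tested, and 29 of the others were called in Sfpq-/- against Sfpq+/- cortex (main value 17). With no limit and a pseudocount of 0.1, chosen after seeing the data, 28 were called against control (main value 18) and 29 against Sfpq+/-. Over all genes 1 was called in Sfpq+/- against control cortex when only those groups were fitted, and 0 to 1 on leaving out 1 library; the cause was not tested. Quantile normalization moved the split of all calls in Sfpq-/- against control cortex from 1747 higher and 2423 lower to 2568 and 2167, and from 1771 and 2221 to 2429 and 2099 against Sfpq+/-, and left the 5 calls of the 8 genes in place. Correlations of the deviations of same-numbered samples ran from -0.044 to 0.404. They were over 0.1 in 2 of 9 pairs, control with Sfpq-/- replicate 1 (0.404) and replicate 3 (0.322), while replicate 2 of these groups gave 0.068. Not every pair exceeded 0.1, and the labels give no pairing, so the numbers were not taken to pair the embryos. With the replicate block 5 of the 8 genes were called lower in both comparisons with Sfpq-/- cortex, 4429 genes were called against control (main value 4170), and the change of Kcnd3 was -1.67. Kcnma1 and Kcnq5 were kept out by the limit on RPKM, at about 96.1 and 236 estimated reads in control libraries.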
